A study of Homo sapiens with 6 samples.

Results

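Zinc finger genes of the p12 cluster on human chromosome 19 were followed in HAP1 cells with and without DEGS1. They are 34 genes taken by symbol from a named list, out of 35238 gene symbols in the count table, and all 34 were found. The list was drawn up after the genotype comparison had been seen: the region was chosen by the counts of 2 of its genes, ZNF676 and ZNF729, which were close to silent in the knockout, and the other members are their neighbours and relatives in the cluster. Every knockout against wildtype value of a member is therefore a description, and the counts of members called by the test are read for nothing beyond that.

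HAP1 is an established human cell line with a near-haploid genome that grows attached to the dish. The 6 libraries are 3 of wildtype HAP1 and 3 of HAP1 labelled as DEGS1 knockout, all untreated, grown with 5% serum and collected 24 h after passage. DEGS1 encodes the desaturase that makes ceramide from dihydroceramide, and the series asks what its loss does to the cell. The labels give neither the number of knockout clones nor whether replicates were separate cultures, so genotype and clone cannot be told apart and a p-value measures the spread between these libraries.

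KRAB zinc finger proteins are repressors that read DNA through a row of zinc fingers. Their KRAB domain recruits TRIM28, which brings in the histone methyltransferase SETDB1 and HP1 proteins, and many members of the family hold transposable elements silent. The 19p12 cluster grew by gene duplication in the primate lineage. ZNF91 is known for silencing SVA elements and ZNF93 for silencing LINE elements, and for most other members the targets are less well described.

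Promoters of the members show how closely related they are. The sequences below run from 250 bases before to 50 bases after the RefSeq start, 5′ to 3′ on the gene's strand, for 4 members that were lower in the knockout (ZNF208, ZNF43, ZNF730 and ZNF90) and for 2 that were not called (ZNF100 and ZNF492). Capitals mark matches to CCAAT and to CTTCCGG on either strand, motifs that do not overlap each other.
ZNF208 (GRCh38.p14, chr19:22010894-22011193, minus strand): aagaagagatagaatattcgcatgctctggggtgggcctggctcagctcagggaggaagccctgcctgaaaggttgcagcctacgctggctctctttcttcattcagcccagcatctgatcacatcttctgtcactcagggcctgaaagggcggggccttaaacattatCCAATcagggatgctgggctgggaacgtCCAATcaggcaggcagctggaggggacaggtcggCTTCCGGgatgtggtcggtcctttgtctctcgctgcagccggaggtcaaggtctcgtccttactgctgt
ZNF43 (GRCh38.p14, chr19:21836133-21836432, minus strand): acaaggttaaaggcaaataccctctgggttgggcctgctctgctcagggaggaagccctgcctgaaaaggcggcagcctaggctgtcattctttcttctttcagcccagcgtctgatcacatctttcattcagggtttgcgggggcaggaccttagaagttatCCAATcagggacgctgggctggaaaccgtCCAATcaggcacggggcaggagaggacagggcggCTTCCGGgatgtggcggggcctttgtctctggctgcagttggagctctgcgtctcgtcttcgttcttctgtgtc
ZNF730 (GRCh38.p14, chr19:23116775-23117074, plus strand): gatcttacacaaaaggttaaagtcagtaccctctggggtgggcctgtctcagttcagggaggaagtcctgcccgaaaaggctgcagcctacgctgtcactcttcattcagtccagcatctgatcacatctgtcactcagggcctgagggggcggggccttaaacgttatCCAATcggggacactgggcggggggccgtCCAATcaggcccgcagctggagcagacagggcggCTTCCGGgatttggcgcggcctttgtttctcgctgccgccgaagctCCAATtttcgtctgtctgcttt
ZNF90 (GRCh38.p14, chr19:20077750-20078049, plus strand): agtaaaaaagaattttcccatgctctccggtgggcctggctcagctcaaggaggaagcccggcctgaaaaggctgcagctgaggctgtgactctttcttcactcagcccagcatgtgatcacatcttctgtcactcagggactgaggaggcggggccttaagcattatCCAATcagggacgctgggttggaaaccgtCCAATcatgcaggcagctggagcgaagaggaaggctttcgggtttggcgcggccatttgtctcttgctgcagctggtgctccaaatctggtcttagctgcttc
ZNF100 (GRCh38.p14, chr19:21767530-21767829, minus strand): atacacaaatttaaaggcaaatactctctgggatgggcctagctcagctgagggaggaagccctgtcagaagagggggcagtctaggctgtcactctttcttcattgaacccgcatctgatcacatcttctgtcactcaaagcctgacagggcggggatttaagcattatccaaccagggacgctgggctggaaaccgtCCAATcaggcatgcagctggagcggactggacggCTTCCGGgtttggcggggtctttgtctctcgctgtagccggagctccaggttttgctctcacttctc
ZNF492 (GRCh38.p14, chr19:22634074-22634373, plus strand): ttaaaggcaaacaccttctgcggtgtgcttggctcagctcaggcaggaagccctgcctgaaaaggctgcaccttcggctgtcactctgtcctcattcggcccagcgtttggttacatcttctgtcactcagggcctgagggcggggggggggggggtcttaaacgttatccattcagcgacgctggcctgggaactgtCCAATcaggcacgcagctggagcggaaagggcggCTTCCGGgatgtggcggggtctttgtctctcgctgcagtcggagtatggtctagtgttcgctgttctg
The 15 pairs among these 6 promoters were identical in 73.8% to 81.9% of aligned columns. RefSeq promoters were at hand for 27 of the 34 members, with no entry for ZNF506, ZNF253, ZNF738, ZNF676, ZNF729, ZNF98 and ZNF99. All 27 held at least 1 CCAAT, as did 34.6% of 35116 promoters of the same length and 45% of 180 promoters of other zinc finger genes on the chromosome. At least 2 CCAAT matches were present in 19 of 27 members and in 10.8% of all promoters. CTTCCGG was found in 19 of 27 members, in 40% of the other chromosome 19 zinc finger promoters and in 10.3% of all promoters. Of the 7 members called lower that have a promoter entry, all 7 held at least 2 CCAAT and 6 held CTTCCGG, beside 12 and 13 of the 20 members not called. The 6 promoters shown were set by name, and the 2 uncalled ones, ZNF100 and ZNF492 with 1 CCAAT each, do not stand for the 20. A match is a string of letters and not a shown binding site.

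Counts summed to 17322756 to 28988522 per wildtype library and to 19389644 to 27659835 per knockout library. Levels are given in CPM, a gene's read count scaled to a common library size, with library sizes adjusted by TMM. Each log2 fold change sets the knockout over the wildtype and comes, like its SE (standard error), from 1 edgeR quasi-likelihood fit of the 16954 tested genes. DEGS1 stood at 95.5 to 123 CPM in wildtype and at 6.88 to 10.4 CPM in the knockout. Wildtype replicate 2 stood apart from the rest: without it 1835 genes were higher and 1990 lower at an edgeR adjusted p under 0.05, against 256 and 500 with all libraries. The summed level of 8 blood markers was 55.1 to 61.2 CPM in wildtype and 70.1 to 77.7 CPM in the knockout, with 2 of them under 1 CPM in both genotypes. Within that list TAL1 rose to 59.6 CPM, 205% of its wildtype level (edgeR adjusted p = 0.000563) and HCLS1 fell from 12.9 to 0.972 CPM (edgeR adjusted p = 7.64e-05). That of 8 epithelial markers was 81.7 to 88.6 and 71.3 to 107 CPM, most of it KRT18, with KRT19 at 0 in every library. Within it EPCAM fell from 2.16 to 0.275 CPM, CLDN1 from 7.49 to 0.649 CPM and ESRP1 from 5.60 to 1.95 CPM (edgeR adjusted p = 0.00233, 4.78e-05 and 0.0241). KRT18, not called, went the other way, from 51.1 to 70.8 CPM (edgeR adjusted p = 0.0794). KRT8 and CLDN4 (log2 fold changes of 0.21 and 0.23) and CDH1 (-0.20) were not called either. That of 8 fibroblast markers, most of it VIM, was 404 to 465 and 634 to 771 CPM, with LUM at 0 in every library. VIM rose from 421 to 712 CPM (edgeR adjusted p = 0.00927), and no other marker of that list was called. The part of these marker lists in the results was not tested. In RNA from whole cultures, fewer cells that use a gene and less RNA of it per cell cannot be told apart.

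ZNF676 and ZNF729, which chose the region, lie next to each other in it. ZNF676 had 260, 380 and 120 reads in the 3 wildtype libraries and 3, 6 and 7 in the 3 knockout libraries, or 10.2, 14.1 and 6.43 CPM against 0.154, 0.229 and 0.255 CPM. ZNF729 had 90, 163 and 49 reads against 0, 3 and 4, or 3.54, 6.05 and 2.63 CPM against 0, 0.115 and 0.146 CPM. The groups are far apart in both genes, wildtype replicate 2 is the highest library of each and wildtype replicate 3 the lowest wildtype library of each. The absence of reads in knockout replicate 1 allows a ZNF729 level of up to 0.154 CPM, that of 3 counts. Summed over libraries and scaled, the wildtype to knockout ratio was 48.9 for ZNF676 (95% exact interval 29.9 to 85.9) and 44.4 for ZNF729 (21.3 to 111), intervals that cover counting error only. The knockout kept 2.08% and 2.13% of the wildtype level, and the fitted log2 fold changes were -5.53 (SE 0.39) and -5.36 (SE 0.56). The 2 genes lay below the level the expression filter asks for, 0.387 CPM, in every knockout library and entered the fit through wildtype alone, so they had to differ.

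**Figure D1:**
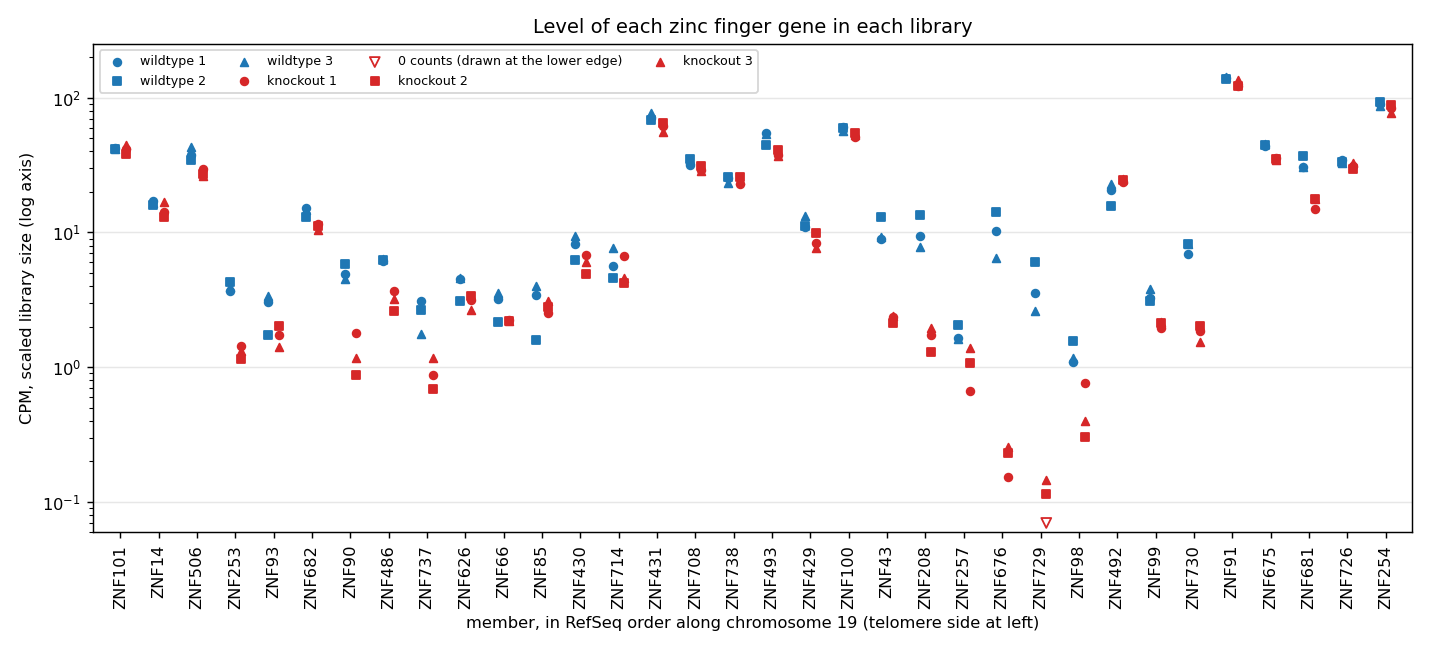
Level of each member in each library, in CPM on a log axis, with members in RefSeq order along chromosome 19 1 symbol for each replicate of a genotype and an open triangle at the lower edge for a count of 0. ZNF676 and ZNF729 drop to 0.255 CPM or less in the knockout, while ZNF91, ZNF254 and ZNF431 are the 3 highest members in CPM in wildtype.

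All 34 members passed the filter on low counts. The fit over all genes called 11 of them lower in the knockout, beside 2.95% of all tested genes called lower. It called 0 higher, beside 1.51% of all genes (4.46% were called in either direction), with 0 members higher at an unadjusted p under 0.05 and 0 called higher by the DESeq2 Wald test or limma voom. In 23 members all 3 knockout libraries lay below all 3 wildtype libraries, an arrangement found in 11.6% of tested genes. In 1 member, ZNF492, they lay above (9.24% of tested genes), and in 10 the groups overlapped. Without wildtype replicate 2 the members called lower numbered 18, beside 11.5% of all genes, and these held all 11 of the first count.

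The other 9 members called lower kept more of their expression. ZNF208, which encodes one of the longest arrays of fingers in the cluster, stood at 9.44, 13.4 and 7.82 CPM in wildtype and at 1.74, 1.30 and 1.97 CPM in the knockout. Its knockout level was 16.4% of wildtype (log2 fold change -2.61, SE 0.27). ZNF43 stood at 8.96, 13.1 and 9.32 CPM against 2.36, 2.14 and 2.41 CPM, or 22% of wildtype (-2.18, SE 0.22). In both genes wildtype replicate 2 was again the highest library, and every knockout library lay well below every wildtype one.

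ZNF730 stood at 6.96, 8.25 and 8.14 CPM against 1.85, 2.03 and 1.53 CPM (log2 fold change -2.11, SE 0.22). ZNF90 stood at 4.95, 5.87 and 4.50 CPM against 1.80, 0.879 and 1.17 CPM (-2.02, SE 0.30). ZNF253 stood at 3.70, 4.31 and 3.96 CPM against 1.44, 1.15 and 1.31 CPM (-1.62, SE 0.25). These 3 zinc finger genes kept 23.1%, 25.1% and 32.6% of the wildtype level, and in each of them all knockout libraries lay below all wildtype libraries.

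ZNF737 was the least abundant of the 9, at 3.11, 2.64 and 1.77 CPM against 0.872, 0.688 and 1.17 CPM (log2 fold change -1.46, SE 0.33). ZNF486 stood at 6.13, 6.20 and 6.37 CPM against 3.69, 2.60 and 3.21 CPM (-0.98, SE 0.22), or 50.8% of wildtype. ZNF681 stood at 30.4, 36.7 and 30.7 CPM against 14.8, 17.8 and 17.6 CPM (-0.96, SE 0.13), and ZNF506 at 37.8, 34.2 and 43.1 CPM against 29.3, 27.3 and 26.2 CPM (-0.47, SE 0.12). The groups do not overlap in any of these 4 genes, and the ZNF506 groups come closest. ZNF506 lost its call in 11 of 16 other settings, and ZNF486 and ZNF737 in 5 each. For all 3 these included the fits without wildtype replicate 1 (log2 fold changes of -0.48 for ZNF506, -0.99 for ZNF486 and -1.28 for ZNF737), without knockout replicate 1 (-0.50, -1.08 and -1.42), without knockout replicate 2 (-0.46, -0.85 and -1.28) and without knockout replicate 3 (-0.43, -0.99 and -1.69). Without wildtype replicate 3, ZNF506 (-0.38) and ZNF486 (-0.96) also lost theirs. The other 8 called members kept their call in all 16.

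The 3 members of highest CPM kept most of their level. ZNF91, the repressor of SVA elements, stood at 140, 136 and 143 CPM in wildtype and at 123, 123 and 136 CPM in the knockout (log2 fold change -0.14, SE 0.11). ZNF254 stood at 89.8, 92.3 and 86.1 CPM against 83.3, 88.6 and 77.1 CPM (-0.11, SE 0.10), and its groups overlap. ZNF431 stood at 70.3, 68.3 and 76.3 CPM against 61.4, 64.5 and 55.9 CPM (-0.24, SE 0.10). None of these 3 was called, and the knockout kept 91% of the wildtype level of ZNF91, 92.9% of that of ZNF254 and 84.6% of that of ZNF431. The knockout libraries of ZNF91 and ZNF431 lie below the wildtype ones, by a narrow margin in ZNF91.

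ZNF93, the repressor of LINE elements, was scarce, at 3.03, 1.75 and 3.37 CPM against 1.74, 2.03 and 1.42 CPM (log2 fold change -0.64, SE 0.32). Its groups overlap through wildtype replicate 2, and without that library ZNF93 was called lower (-0.88). Another 6 members, not called with all libraries, were called lower without wildtype replicate 2: ZNF682 (-0.44), ZNF430 (-0.57), ZNF493 (-0.49), ZNF98 (-1.25), ZNF99 (-0.75) and ZNF675 (-0.34). ZNF98 was also called with no filter and ZNF675 with upper-quartile scaling. Over the 23 members not called, log2 fold changes ran from -1.42 in ZNF98 to 0.31 in ZNF492, with a median of -0.24.

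ZNF98 stood at 1.10, 1.56 and 1.18 CPM against 0.770, 0.306 and 0.401 CPM (log2 fold change -1.42, SE 0.41), and ZNF492 at 20.8, 15.8 and 22.8 CPM against 23.7, 24.7 and 24.8 CPM (0.31, SE 0.15). Of the windows of 75 bases, the read length, in the longest ZNF98 transcript, 54.9% occur in no transcript of another gene and 42.4% occur in ZNF492, while 75.2% of those of ZNF492 are its own and 23% occur in ZNF98. No source used here says how such reads were counted, and the values of both genes are uncertain. In the other 32 members 93.9% to 100% of windows were unique, with 98.7% in ZNF676 and 97.7% in ZNF729.

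**Figure D2:**
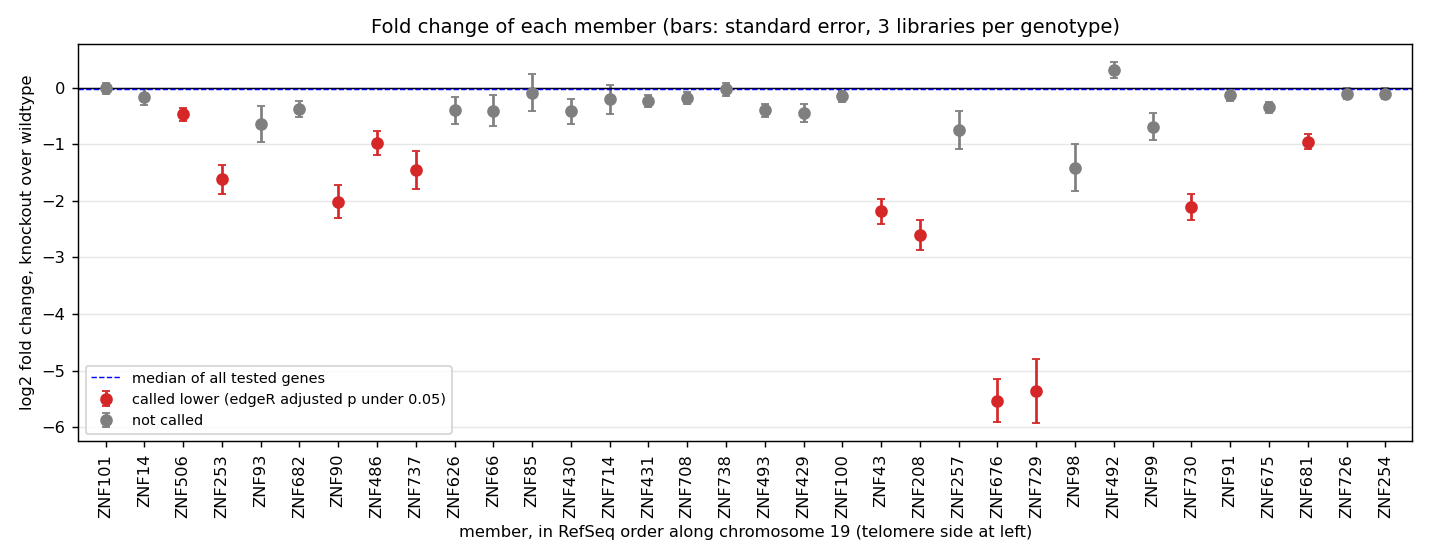
Log2 fold change, knockout over wildtype, of each member in RefSeq order along chromosome 19, with bars for the standard error (3 libraries per genotype), red for members called lower and grey for the rest. The run from ZNF43 to ZNF98 lies between -0.75 and -5.53, and ZNF492 at 0.31 is the only positive value.

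Along the chromosome the lower members stood in several places. The 6 consecutive members ZNF43, ZNF208, ZNF257, ZNF676, ZNF729 and ZNF98 had log2 fold changes of -2.18, -2.61, -0.75, -5.53, -5.36 and -1.42, and ZNF257 and ZNF98 among them were not called. They sat between ZNF100 (-0.16, SE 0.10) and ZNF492 (0.31, SE 0.15). ZNF90, ZNF486 and ZNF737 were 3 called members in a row nearer the telomere, while ZNF506, ZNF253, ZNF730 and ZNF681 were called beside members that were not, apart from the pair ZNF506 and ZNF253, which are neighbours. ZNF431, ZNF708, ZNF738, ZNF493, ZNF429 and ZNF100, a stretch of 6 members just before ZNF43, ran from -0.45 to -0.03 with none called.

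Summed over the 34 members, the cluster stood at 816, 808 and 825 CPM in wildtype and at 658, 670 and 664 CPM in the knockout. The knockout sum was 81.4% of the wildtype sum, and 82.8% without ZNF676 and ZNF729. The 11 called members together went from 132 ± 11.5 to 57.1 ± 0.959 CPM and the other 23 from 685 ± 19.5 to 607 ± 6.74 CPM (SD, n = 3 libraries each). Of the 34 log2 fold changes, 33 were negative, with a median of -0.41 and quartiles of -1.31 and -0.18. The median of all tested genes was -0.02, with 52.7% negative. The sign of 4 small values, those of ZNF101, ZNF738, ZNF85 and ZNF714, turned in at least 1 other setting, and 30 to 33 members were negative over all settings.

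Other zinc finger genes, matched by a symbol of ZNF and digits with no check for a KRAB domain, give the scale. Of 193 tested elsewhere on chromosome 19, 4 were lower and 2 higher in edgeR's test, with a median log2 fold change of -0.04 and 56.5% negative. ZNF728, which lies between members, is left out of these. Of 218 tested on other chromosomes, 8 were lower and 3 higher, with a median of -0.04 and 58.7% negative. Single genes among them also changed: ZNF841 on chromosome 19 fell from 9.62 ± 1.41 to 2.02 ± 0.0608 CPM (SD, n = 3), a log2 fold change of -2.25 with an SE of 0.21 (edgeR adjusted p = 8.38e-05). ZNF783 on another chromosome fell from 19.3 ± 2.43 to 4.51 ± 0.927 CPM (-2.10, SE 0.19, edgeR adjusted p = 7.09e-05). In the same list ZNF736 fell from 46.2 ± 3.98 to 18.6 ± 4.71 CPM (-1.31, SE 0.16, edgeR adjusted p = 0.00061). ZNF660, of that list too, rose from 11.1 ± 2.30 to 18.4 ± 0.557 CPM (0.72, SE 0.16, edgeR adjusted p = 0.0263). Over 2-fold lower were 9 of the 34 members, 3 of the 193, 6 of the 218 and 3.27% of all tested genes. The members were picked with these values known, so no test sets them against the other lists.

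**Figure D3:**
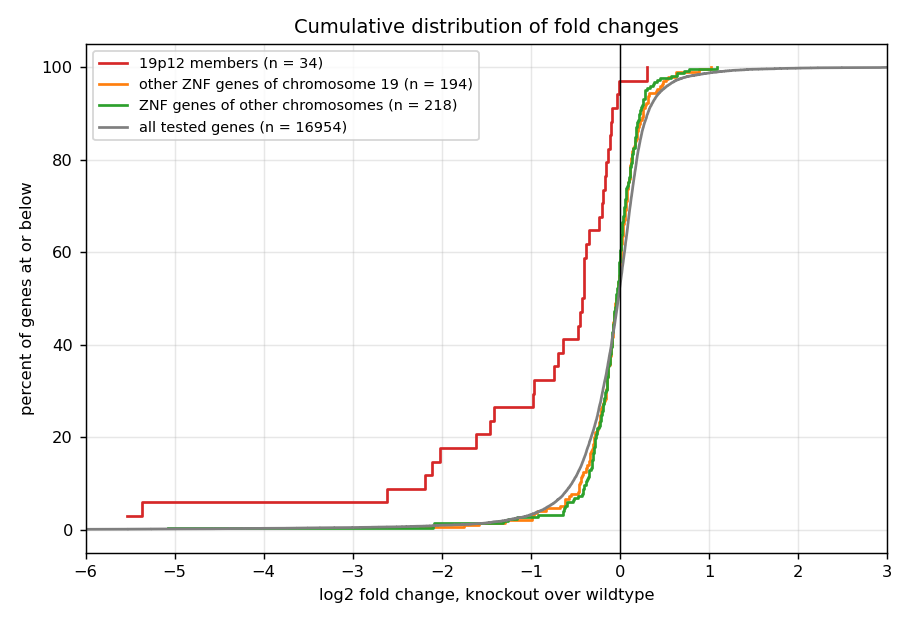
Cumulative distribution of log2 fold changes, knockout over wildtype, for the 34 members, 194 other zinc finger genes of chromosome 19 (ZNF728 among them), 218 zinc finger genes of other chromosomes and all 16954 tested genes. The members' curve lies to the left of the others, with 33 of 34 values below 0 and a median of -0.41 against -0.04, -0.04 and -0.02. Values outside -6 to 3 are not drawn.

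How the calls divide by level depends on how level is taken. By the wildtype mean alone, 8 of the 17 members below its median of 10.4 CPM and 3 of the 17 above it were called lower, with median log2 fold changes of -0.98 and -0.19. Among all tested genes 3.28% below that level and 2.72% above it were called lower. At a wildtype mean of 6.67 CPM, 5 of 13 members below and 6 of 21 above were called. At the same 6.67 CPM of the mean over all 6 libraries, which holds the lowered knockout values, 9 of 17 below and 2 of 17 above were called: ZNF43, ZNF208, ZNF676 and ZNF730 lie below it by that mean and above it by the wildtype mean. The splits by wildtype mean were added after the values were seen. Across the 34 genes, Spearman's rho between the wildtype level and the log2 fold change was 0.53. This is a description over genes of 1 cluster, and both measures use the same wildtype libraries.

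**Figure D4:**
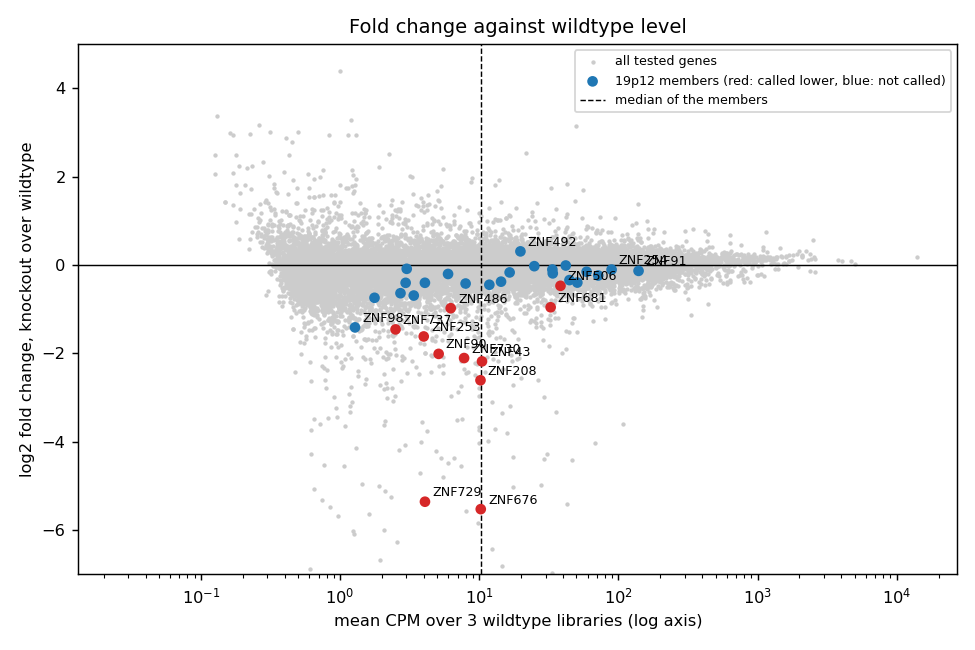
Log2 fold change, knockout over wildtype, against the mean CPM of the 3 wildtype libraries on a log axis, for all tested genes (grey) and the members (red, called lower; blue, not called), with a dashed line at the members' median of 10.4 CPM. Of the 11 called members, 8 lie left of the line, and ZNF43, ZNF681 and ZNF506 lie right of it. ZNF43, ZNF208 and ZNF676 lie almost on the line. Genes outside the axes are not drawn.

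Per kb of the longest transcript, the scale on which genes can be compared, the order in wildtype was led by ZNF91 at 25.4 ± 0.599 CPM per kb, ZNF254 at 21.1 ± 0.734 and ZNF726 at 13.6 ± 0.367 (SD, n = 3). ZNF675, ZNF100, ZNF738 and ZNF493 followed at 10.5, 10.3, 10.2 and 10.1 CPM per kb, which do not differ beyond their spread. The first 3 places were the same in the knockout. ZNF676 stood 17th in wildtype, at 3.48 CPM per kb, and 33rd in the knockout, at 0.0723, and ZNF729 went from place 27 to 34. With the median transcript length in place of the longest, 7 of the 10 most abundant members remained among the first 10, but the order changed: ZNF91 stayed first, ZNF431 moved from place 13 to 2, ZNF254 from 2 to 9 and ZNF726 from 3 to 13.

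Called members and the rest had similar medians for the features of their transcripts. Counting the cysteine and histidine spacing of a zinc finger in the longest open reading frame, ZNF208 had 36 matches, ZNF729 34, ZNF91 31, ZNF99 25, ZNF43 19 and ZNF676 14, and the median was 13 both in called members and in the rest. ZNF738 had 0, in a longest reading frame of 137 residues. The longest transcript had a median GC content of 37.7% in called members and 37.4% in the rest, and a median length of 3837 and 4004 bases. Promoters held a median of 10 CG dinucleotides in both sets, fewer than the 14 of all promoters. Spearman's rho with the log2 fold change was -0.19 for finger matches, -0.16 for GC content and 0.22 for length over 34 genes, and 0.29 for promoter CG count over 27 genes. Pearson's r was -0.42 for finger matches, 0.004 for GC content, 0.17 for length and 0.15 for promoter CG count. ZNF208 and ZNF729, with the most finger matches, are among the lowest in log2 fold change.

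TRIM28, the co-repressor bound by the KRAB domain, stood at 372, 351 and 385 CPM in wildtype and at 394, 390 and 373 CPM in the knockout (0.06 on the log2 scale, SE 0.12, edgeR adjusted p = 0.836). SETDB1 stood at 70.1, 66.0 and 68.3 CPM against 57.4, 61.2 and 58.6 CPM, groups that do not overlap (-0.21, SE 0.10, edgeR adjusted p = 0.316). ZNF274, which binds the finger-coding ends of zinc finger genes, stood at 24.3 and 23.9 CPM (-0.02, SE 0.14, edgeR adjusted p = 0.953), a sign that turned in 5 of 16 other settings, among them the length and GC trend removed (0.07). Of 29 tested genes of this machinery, 0 passed edgeR's test, beside 4.46% of all tested genes. An unadjusted p under 0.05 was found in 5 of the 29, beside 2799 of all 16954 tested genes. The DESeq2 Wald test called 1 of the 29 and limma voom 0. Nearest was HELLS, a chromatin remodeller needed for DNA methylation, at 252 ± 31.6 against 170 ± 26.3 CPM (SD, n = 3; -0.56, SE 0.15, edgeR adjusted p = 0.0557), which passed in the DESeq2 Wald test and with no filter. MORC2 and MPHOSPH8, of the HUSH silencing pathway, had log2 fold changes of -0.53 (SE 0.16) and -0.36 (SE 0.11), each with an edgeR adjusted p of 0.0916. MORC2 passed with no filter, and MPHOSPH8 with upper-quartile scaling and with library size only. Without wildtype replicate 2, 9 of these genes passed, among them HELLS (-0.66), MORC2 (-0.68) and MPHOSPH8 (-0.29). In that fit 1835 of all 17305 tested genes passed as higher and 1990 as lower.

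Rows lying between the outermost members are mostly annotated as pseudogenes in RefSeq. Of 64 such rows that are no members, 28 had no read in any library and 14 were tested, with 0 called by edgeR and 2 at an unadjusted p under 0.05. The remaining rows had too few reads to be tested, so they could not be called. Among them VN1R85P had 9, 14 and 5 reads in wildtype and 1, 0 and 0 in the knockout. BNIP3P17 had 14, 9 and 4 against 0, 0 and 0, while BNIP3P8 had 12, 4 and 11 against 5, 9 and 10. With no filter, 4 neighbours were called in either direction, flanking genes included. ZNF728, a zinc finger gene between ZNF99 and ZNF730, stood at 0.550, 0.520 and 0.482 CPM against 0.154, 0.0765 and 0.219 CPM (-1.75 on the log2 scale, SE 0.51, edgeR adjusted p = 0.0869). Without wildtype replicate 2 it passed the test (edgeR adjusted p = 0.0439), its only pass in 15 other settings. ZNF724P, which carries a pseudogene symbol in the count table, was abundant and its groups overlap, at 56.5 ± 6.39 against 49.6 ± 5.04 CPM (SD, n = 3; -0.19, SE 0.12, edgeR adjusted p = 0.481). Some pseudogene rows lie within a member's span in GRCh38: SNX6P1, within ZNF730, had 26 reads in wildtype and 4 in the knockout, summed over libraries, while BNIP3P37, also within ZNF730, had 70 and 58. BNIP3P30, within ZNF676, had 7 reads against 0, and BNIP3P28, within ZNF208, 96 against 102. VN1R85P, BNIP3P17, BNIP3P8, SNX6P1, BNIP3P30, BNIP3P28 and BNIP3P37 were chosen after their values were seen.

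None of the tested genes flanking the cluster was called lower. Of the 10 nearest protein-coding genes on the telomere side, all tested, 1 was called and it was higher: CILP2, a cartilage matrix protein, rose from 0.261 ± 0.069 to 2.35 ± 0.776 CPM (SD, n = 3), or 3.16 on the log2 scale with an SE of 0.41 (edgeR adjusted p = 0.000799). The median of the 10 was -0.15, with 8 negative and 2 positive. An unadjusted p under 0.05 was found in 3 of the 10, beside 2799 of all 16954 tested genes. These were CILP2 and, on the lower side, PBX4 (-0.98, SE 0.35) and ATP13A1 (-0.39, SE 0.14). The edgeR adjusted p was 0.176 for PBX4 and 0.168 for ATP13A1. Of the 10 nearest on the other side, across the centromere, 9 were tested, 0 were called by edgeR with 1 at an unadjusted p under 0.05, and the median was 0.14.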

How the data were processed

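RNA from 3 wildtype and 3 DEGS1 knockout HAP1 libraries was sequenced from a stranded total RNA kit with reads of 75 bases. The authors deposited raw counts per gene symbol, and the submitters' processing notes name bcl2fastq 2.20 and the build hg19. The aligner, the counter, its use of strand and its handling of reads shared by related genes were not stated in what was used here. The 34 members, the gene lists and the tests were chosen with earlier results of these data known.

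Counts were tested in edgeR 4.0.16 (R 4.3.3) by the quasi-likelihood test on genotype, with TMM scaling, the filterByExpr filter (10 counts) and Benjamini-Hochberg adjustment over all 16954 tested genes. Calls are at an adjusted p under 0.05. The script was tested on simulated counts. Alternatives were DESeq2 1.42.0, limma voom 3.58.1, other scalings and filters, a replicate block, removal of a length and GC trend (values for 94.3% of tested genes and for all 34 members), and leaving out each library. Described in full are ZNF676, ZNF729, each called member, the 3 of highest wildtype CPM, ZNF91 and ZNF93, with the rest by range. ZNF98 and ZNF492 were added after their values were seen. Libraries of 1 genotype differed by more than sampling noise (chi-square per degree of freedom 12.6 to 52.6), so each was counted once, which does not show that they came from separate cultures. A count of 0 allows 0.109 to 0.161 CPM, counting error only. RefSeq (GRCh38.p14) gave gene order and promoters, and it placed 27358 of 35238 symbols. Transcript lengths, GC content, reading frames, finger matches and window shares were taken from GENCODE transcripts.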

Additional observations from a re-analysis of the deposited data

How the results depend on the processing

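Over 16 other fits the members called lower numbered 8 to 18, the range over fits without 1 library, with 18 without wildtype replicate 2. DESeq2 Wald gave 385 genes higher. An adjusted p under 0.01 left 112 genes higher, 263 lower and 4 zinc finger genes of other chromosomes. Without 1 library each, 113 to 1835 genes were higher and 267 to 1990 lower, with 3 to 32 calls among other chromosome 19 zinc finger genes, 4 to 30 on other chromosomes, 0 to 9 among co-repressors and 1 to 4 among neighbours. Library size only and voom gave 7 on other chromosomes. Upper-quartile scaling, library size only and DESeq2 Wald gave 1 co-repressor. No filter gave 2 co-repressors and 4 neighbours.

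In the deposited library names each wildtype library shares a code with the knockout library of the same replicate number, and the meaning of the code is not stated. Same-numbered libraries deviated together with correlations of 0.226, 0.355 and -0.14, and not each best with its own number. With so few libraries these correlations cannot decide whether the numbers are pairs. The main fit took none, and the replicate block was an alternative. With the replicate block 11 members were lower, 390 genes were higher, and 2 co-repressors (MORC2 and MPHOSPH8) and 2 neighbours were called. With block and length and GC trend together, 658 genes were higher, and 11 chromosome 19 zinc finger genes, 1 co-repressor (MORC2) and 2 neighbours were called. The share of calls that were higher was 33.9%, 46.6% with that trend removed, 53.6% with trend and block, and 48% without wildtype replicate 2.

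Signs turned for 5 small log2 fold changes, each followed by its range without 1 library. ZNF101 was 0.00122 with DESeq2 size factors, 0.00123 with DESeq2 Wald, 0.0656 with the trend removed and 0.0627 with block and trend (-0.0685 to 0.0440). ZNF85 was 0.0481 with voom and 0.0394 with block and trend (-0.394 to 0.166). ZNF714 ranged from -0.415 to 0.0169. ZNF738 was 0.0322 with the trend removed and 0.0329 with block and trend (-0.0681 to 0.0307). ZNF274 was 0.0664 and 0.0562 (-0.142 to 0.0869). The cause was not tested. Depth limits ZNF729, with 0 to 4 reads per knockout library.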
